A study of Caenorhabditis elegans with 2 samples.

Results

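Among the nuclear genes of Caenorhabditis elegans that RNA polymerase III transcribes, 8 small RNA genes outside the tRNA class were examined for peaks of the bZIP transcription factor ZIP-11. They were chosen by name from the annotation, as 8 of 46890 nuclear genes, with earlier results of these data known. They are rpr-1, which encodes the RNA subunit of RNase P; mrpr-1, the RNA subunit of RNase MRP; srpr-1.1, srpr-1.2, srpr-2.1, srpr-2.2 and srpr-3, 5 copies of the signal recognition particle (SRP) RNA; and yrn-1, the Y RNA. Chromatin immunoprecipitation with sequencing (ChIP-seq) was available from 1 group of 2 samples, biological replicates 1 and 2 per the labels. Both came from whole L4 larvae of strain OP761, 52.5 hours old and synchronised as starved L1 larvae after bleaching. The strain carried the unc-119 (tm4063) mutation and the insertion wgIs761, a zip-11 transgene with a TY1, EGFP and 3xFLAG tag together with an unc-119(+) rescue gene. Sonicated chromatin was precipitated with an antibody to GFP, per the sample description. The antibody field of the labels names zip-11, so whether untagged ZIP-11 could also be precipitated is not settled by them. The strain is 1 transgenic line, whole animals mix all tissues, and what drives the transgene is not stated in the labels used here. There was no untagged or second condition, so no comparison between groups could be made and no test was run.

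RNase P cuts the 5′ leader from precursor tRNAs, and RNase MRP is a related particle that cuts precursor ribosomal RNA. Each has a catalytic RNA and a set of proteins, most of which the particles share. The SRP binds the signal peptide of a nascent secretory or membrane protein and brings the ribosome to the endoplasmic reticulum, with its RNA as the scaffold of the particle. The Y RNA binds the Ro protein, which is named ROP-1 in the worm and takes part in RNA quality control. RNA polymerase III reads such genes from promoters of several kinds. tRNA genes carry internal A and B boxes, while snRNA-type genes of RNA polymerase III, which in other animals include the RNase P, RNase MRP and Y RNA genes, use elements upstream of the start, among them a TATA box. Transcription ends at a run of T.

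The starts of 7 genes are shown because their upstream words divide the genes into groups. Each line runs 5′ to 3′ on the sense strand from 75 bases upstream of the annotated transcription start site (TSS, base 0) to base 24 of the gene, from the RefSeq genome of assembly WBcel235, whose sequence is that of ce11. Capitals mark the word TATATA or, in other genes, the word TTATATTT. They also mark the word TGTCNG, where N is any base, and the word GAAAAACC. The stretches lie at chrII:7200158-7200257 (+ strand) for mrpr-1, chrIII:4379182-4379281 (− strand) for srpr-1.1, chrIII:4369393-4369492 (+) for srpr-1.2, chrIII:5211145-5211244 (+) for srpr-2.1, chrIII:5031684-5031783 (−) for srpr-2.2, chrV:9293608-9293707 (−) for srpr-3 and chrIV:7499433-7499532 (+) for yrn-1.
mrpr-1: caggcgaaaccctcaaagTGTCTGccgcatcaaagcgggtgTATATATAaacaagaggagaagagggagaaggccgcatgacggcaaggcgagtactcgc
yrn-1: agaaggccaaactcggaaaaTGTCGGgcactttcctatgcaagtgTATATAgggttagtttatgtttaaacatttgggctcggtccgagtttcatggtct
srpr-3: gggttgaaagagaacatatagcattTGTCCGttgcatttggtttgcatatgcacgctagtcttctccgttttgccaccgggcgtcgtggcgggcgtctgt
srpr-1.1: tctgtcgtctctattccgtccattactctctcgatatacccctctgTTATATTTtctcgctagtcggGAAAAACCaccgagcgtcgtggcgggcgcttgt
srpr-1.2: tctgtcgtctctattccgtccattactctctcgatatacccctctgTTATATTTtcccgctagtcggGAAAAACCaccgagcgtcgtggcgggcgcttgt
srpr-2.2: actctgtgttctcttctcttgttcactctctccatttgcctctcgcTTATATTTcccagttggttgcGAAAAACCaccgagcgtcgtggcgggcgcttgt
srpr-2.1: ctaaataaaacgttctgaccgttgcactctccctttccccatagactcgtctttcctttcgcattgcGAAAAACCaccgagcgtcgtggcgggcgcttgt

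These words were picked after the members' sequences had been read, so their presence in the members is a description and supports nothing. TATATA began 30 to 34 bases upstream of the TSS in rpr-1, mrpr-1 and yrn-1, and 1.61% of all nuclear genes held it from −40 to −20. TGTCNG lay from −75 to −45 in those 3 genes and in srpr-3, against 1.62% of all genes (2.93% when either strand counted). rpr-1 and mrpr-1 shared the longer word GTGTCNGCCGC, of which TGTCNG is a part, and 14 genes in the genome, 6 of them snoRNA genes, had it within 100 bases upstream. The SRP copies srpr-1.1, srpr-1.2 and srpr-2.2 had TTATATTT between −40 and −10 (0.563% of all genes). All SRP copies except srpr-3 had GAAAAACC ending at the base before the TSS (27 genes, 0.0576% of all genes within 20 bases upstream) and ACTCTC from 50 or 51 bases upstream (1.09% of all genes from −75 to −25). These shares are for the sense strand; on either strand they were 1.61% for TATATA, 0.0299% for GTGTCNGCCGC, 0.94% for TTATATTT, 0.151% for GAAAAACC and 1.65% for ACTCTC. A run of 4 or 5 T began within 3 bases of the annotated gene end in all 8 genes. The share of other genes with such a run was not counted, so it cannot be called particular to the members.

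The authors deposited peak lists on assembly ce11. A thresholded and a ranked list came from each sample, and both samples together gave a pooled pair of lists and a conservative pair. The thresholded lists held 364 peaks (pooled), 329 (conservative), 155 (replicate 1) and 108 (replicate 2), and the ranked lists 111547, 111931, 51611 and 53307. A ranked list also gives the global irreproducible discovery rate (IDR) as its −log10. This value is high where a peak ranks both high and alike in a pair of inputs, and thresholded peaks were at 2 or above. Each peak carries the authors' own signal value, ChIP over control from their peak caller. The value has a scale of its own in replicate 1, in replicate 2 and in the lists of both samples. The highest peak counted for a member had the same position and signal value in the pooled and conservative ranked lists, with a different IDR. The signal values were therefore read only within a list, and the samples were set side by side. Read counts are in none of the lists, and the sequencing depth behind the values is unknown here. A gene was counted where a peak summit lay from 500 bp upstream of its TSS to its end, and since genes overlap, 1 peak can count for several genes.

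In the pooled thresholded list, 5 of the 8 genes had a summit in their window: rpr-1, mrpr-1, srpr-1.1, srpr-2.1 and srpr-2.2. Over all nuclear genes the share was 1.13%. Since the members were chosen with earlier results known, this contrast is a description. The same 5 genes had a summit in the conservative thresholded list, where the share over all genes was 1.07%. Those were the same peaks as in the pooled list, so the 2 counts are not separate observations. The lists of single samples held fewer of them. In replicate 1 the thresholded list had rpr-1 and mrpr-1, 2 of 8, against 0.444% of all genes, and in replicate 2 it had the same 2 genes, against 0.299%. The windows of the 3 SRP genes of the pooled list thus held no thresholded summit in either sample on its own. In the ranked lists a summit was common over all genes: 6 of 8 members had one in the pooled list against 66.2% of all genes, 6 of 8 in the conservative list against 66.6%, 7 of 8 in replicate 1 against 46.8% and 6 of 8 in replicate 2 against 47.6%. The members' share was thus near that of all genes in the lists of both samples and above it in the lists of single samples. Rank, signal value and IDR are therefore given for each member. srpr-3 had no summit in its window in any of the 8 lists, and yrn-1 had 1 in the ranked list of replicate 1 only.

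**Figure D1:**
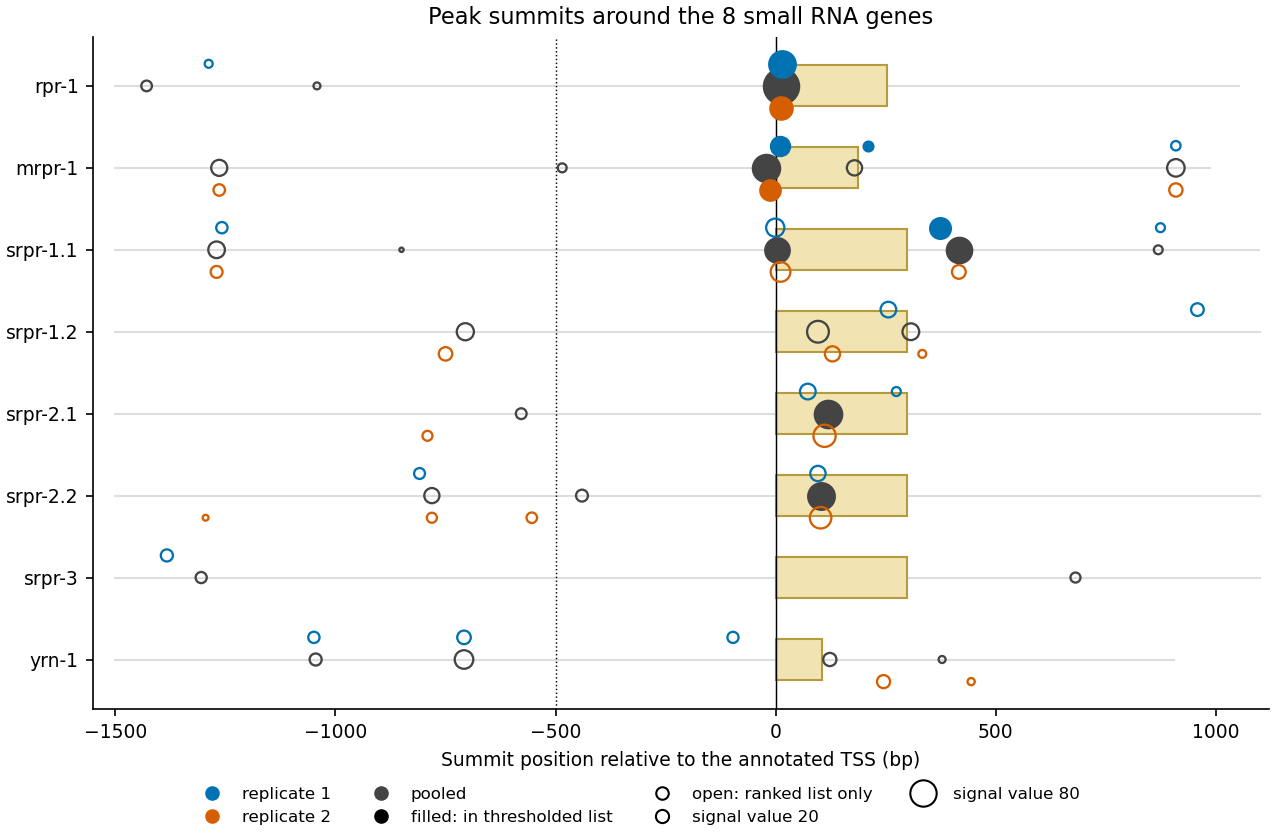
Position of each peak summit, in bp from the annotated TSS, for the 8 genes (boxes, drawn to length) in the ranked lists of replicate 1, replicate 2 and both samples pooled, with point area in proportion to the signal value and filled points for thresholded peaks. The dotted line at −500 bp opens the window; summits at rpr-1, mrpr-1 and srpr-1.1 sit at the gene start, those at srpr-2.1 and srpr-2.2 about 100 bp inside the gene, and srpr-3 has none in its window.

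rpr-1 (chrI:13463955-13464207, + strand, 253 bp) had the highest signal value of the 8 genes in every list. Its peak had a signal value of 81 in replicate 1, 57.3 in replicate 2 and 143 in the pooled list. The summits lay 14 bp, 13 bp and 13 bp downstream of the TSS, 1 bp apart between the samples. This peak ranked 50 of 51611 in replicate 1, 66 of 53307 in replicate 2 and 44 of 111547 in the pooled list. Its −log10 global IDR was 3.50, 2.76 and 3.4, so it passed the threshold in each sample and pooled. It was the sole peak in the rpr-1 window in all 4 ranked lists. rpr-1 lies on the opposite strand within an intron of ints-8, which encodes a subunit of the Integrator complex, and the ints-8 start is 6416 bp away.

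mrpr-1 (chrII:7200233-7200418, + strand, 186 bp) was the other gene thresholded in both samples. Its highest signal value was 42 in replicate 1 at 10 bp downstream of the TSS, 47.9 in replicate 2 at 14 bp upstream, and 85.3 in the pooled list at 23 bp upstream. The sample summits were 24 bp apart, and the pooled summit lay upstream of both. The peak ranked 211 in replicate 1, 106 in replicate 2 and 142 in the pooled list, with −log10 global IDR of 2.28, 2.35 and 2.83. Further pooled ranked peaks in the window, not thresholded, had signal values of 26.7 at 179 bp, near the 3′ end of the gene, and 9.2 at −485 bp. Replicate 1 also had a thresholded peak of signal value 11.1 at 209 bp, past the gene end. That peak ranked only 37578 of 51611 by signal value, though its −log10 global IDR was 2.29. The protein-coding gene pcrg-1 begins 131 bp past the end of mrpr-1 on the same strand, and E04F6.6 lies 668 bp upstream.

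**Figure D2:**
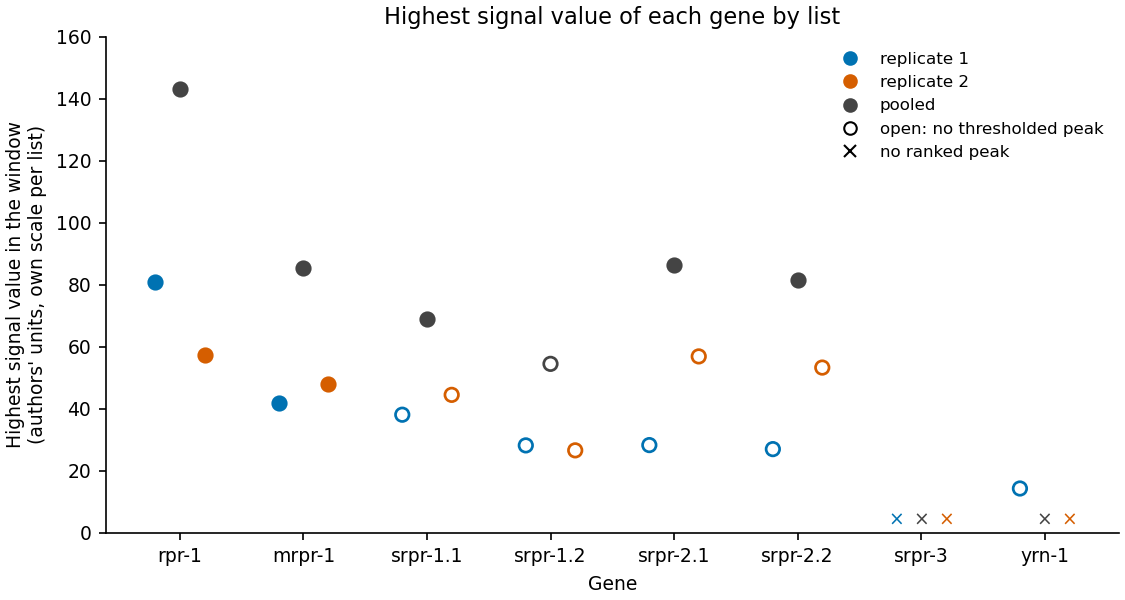
Highest signal value in the window of each gene in replicate 1, replicate 2 and the pooled list, in the authors' units with a scale of its own per list; filled points had a thresholded peak and crosses had no ranked peak. rpr-1 is highest in each list, srpr-2.1 and srpr-2.2 are near the level of srpr-1.2 in replicate 1 and near that of rpr-1 in replicate 2, and srpr-3 has no value.

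The 5 SRP RNA genes fell into 2 pairs of close copies and a diverged copy, and the peaks followed that division only in part. srpr-1.1 and srpr-1.2 were 98.3% identical over 299 aligned columns, with 4 substitutions (A49G, T240A, T296A and T297C, srpr-1.1 base first, counted from 1 at the gene's first base) and 1 gap column. srpr-2.1 and srpr-2.2 were 99% identical, with the 3 substitutions T90C, G249A and G265A (srpr-2.1 base first). Between the pairs identity was 94% to 94.3%. srpr-3 was 81.7% to 82.3% identical to the others. The whole srpr-2.1 gene (chrIII:5211220-5211518, + strand) and srpr-3 (chrV:9293334-9293632, − strand) are shown as the copy with the highest SRP signal value and the copy without a peak. In srpr-2.1 capitals mark GGTTC, and in srpr-3 they mark the bases that differ from srpr-2.1.
srpr-2.1: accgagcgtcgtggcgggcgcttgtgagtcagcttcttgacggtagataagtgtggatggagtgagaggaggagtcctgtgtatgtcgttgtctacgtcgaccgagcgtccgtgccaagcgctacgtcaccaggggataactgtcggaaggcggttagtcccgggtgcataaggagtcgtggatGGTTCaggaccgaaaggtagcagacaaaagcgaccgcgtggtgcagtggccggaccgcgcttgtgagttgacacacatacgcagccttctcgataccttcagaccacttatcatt
srpr-3: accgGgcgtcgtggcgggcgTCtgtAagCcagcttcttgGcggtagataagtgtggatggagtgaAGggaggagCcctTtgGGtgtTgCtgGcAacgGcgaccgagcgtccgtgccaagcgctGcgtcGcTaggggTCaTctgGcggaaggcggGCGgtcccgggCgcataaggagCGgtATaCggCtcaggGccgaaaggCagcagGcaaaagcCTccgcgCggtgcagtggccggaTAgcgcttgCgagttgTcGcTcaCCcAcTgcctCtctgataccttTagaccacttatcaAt

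srpr-2.1 had signal values of 28.3 in replicate 1, 56.9 in replicate 2 and 86.4 in the pooled list. Its summits lay at 73, 111 and 118 bp, all inside the gene. The pooled peak ranked 137 and had a −log10 global IDR of 2.57. Replicate 2 placed the peak at rank 67 of its list and replicate 1 at rank 1363, and the −log10 IDR within each sample was 1.11 and 1.14, below the threshold. The copy therefore stood among the highest peaks of replicate 2 (upper 0.126%) but lower in replicate 1 (upper 2.64%).

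srpr-2.2 (chrIII:5031410-5031708, − strand) showed the same difference between the samples. Its signal values were 27 in replicate 1, 53.3 in replicate 2 and 81.7 in the pooled list, at 96, 102 and 102 bp. The peak ranked 1807 in replicate 1, 78 in replicate 2 and 165 in the pooled list, with −log10 IDR of 0.54, 1.90 and 2.65. srpr-2.2 lies antisense in an intron of klp-6, a kinesin gene, and the ncRNA gene R144.16 overlaps its start on the same strand. srpr-2.1 has no gene over it and lies 179512 bp away on the opposite strand.

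srpr-1.1 (chrIII:4378909-4379206, − strand) had its summit at the gene start, unlike the srpr-2 pair. The signal values were 38.1 in replicate 1 at −1 bp, 44.5 in replicate 2 at 11 bp and 69.1 in the pooled list at 3 bp. The pooled peak ranked 278 with a −log10 IDR of 2.17, the lowest of the 5 genes thresholded there. In replicate 2 the −log10 IDR of 1.97 was just short of the threshold, and in replicate 1 it was 0.29. A higher pooled peak, with a signal value of 74.2 and a −log10 IDR of 2.34, lay at 416 bp, which is 119 bp past the gene end in an exon of pals-26 and outside the window. Replicate 1 had a thresholded peak of signal value 49.5 there, at 373 bp, and replicate 2 a ranked peak of 21.7 at 416 bp, so the order of the start peak and the downstream peak differed between the samples. The gene pals-26 ends 2 bp from srpr-1.1 on the other strand, and B0284.3 lies 115 bp upstream.

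srpr-1.2 (chrIII:4369468-4369766, + strand) was the copy with a ranked peak and no thresholded one. Its signal values were 28.2 in replicate 1, 26.6 in replicate 2 and 54.5 in the pooled list. The summits scattered along the gene, at 256, 129 and 96 bp, 127 bp apart between the samples. The pooled −log10 IDR was 1.57 and the rank 688. In the samples the −log10 IDR was 0.14 and 0.05. srpr-1.2 lies in sense in an intron of ckb-2, a choline kinase gene, 9738 bp from srpr-1.1 and on the other strand. The upstream 100 bases of srpr-1.1 and srpr-1.2 were 95% identical, and in the next 50 bases identity was 53.8%. These copies had the most alike upstream 100 bases among the 5 (43% to 63.2% in the other pairs). Their pooled peaks differed in where the summit lay and in the threshold, with −log10 IDR of 2.17 and 1.57. Both were under a global IDR of 0.05. Within 140 bp of the summits, 33.6% and 22.8% of stretches of 31 bases were unique, so the values may mix reads of several copies. The reason for the difference was not tested.

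srpr-3 had no summit in its window in either sample or in the lists of both samples together. The nearest pooled ranked peak, of signal value 11.6, lay at 681 bp, past the gene end, and no ranked peak of replicate 2 lay within 1500 bp upstream or 800 bp past the end. The ncRNA gene F44A2.13 is annotated over the whole of srpr-3 from the same start, so a peak there would have counted for both.

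The copies with and without a peak also differed in how well their sequence can be told from the rest of the genome. All stretches of 31 bases (31-mers) of srpr-3 occurred once in the genome, as did those of rpr-1, mrpr-1 and yrn-1. In srpr-1.1 the share was 12.7%, in srpr-1.2 24.5%, in srpr-2.1 27.5% and in srpr-2.2 29%, and some 31-mers occurred 4 times. Within 140 bp of the pooled summit the unique share was 33.6% at srpr-1.1, 22.8% at srpr-1.2, 18.8% at srpr-2.1 and 22.8% at srpr-2.2, against 100% at rpr-1 and mrpr-1. With 36-mers the shares over the whole gene in the 4 copies rose to between 14.8% and 33%. Those within 140 bp of the pooled summit rose to between 21.2% and 36.3%. How the aligner placed reads that match several copies is not given in the sources used here. For those 4 genes, reads that lie in shared stretches cannot be told apart between copies, while the unique stretches inside the genes could place a part of the reads. The part of this in their signal values was not tested. At rpr-1 and mrpr-1, the 2 genes thresholded in both samples, the sequence at the summit was unique.

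**Figure D3:**
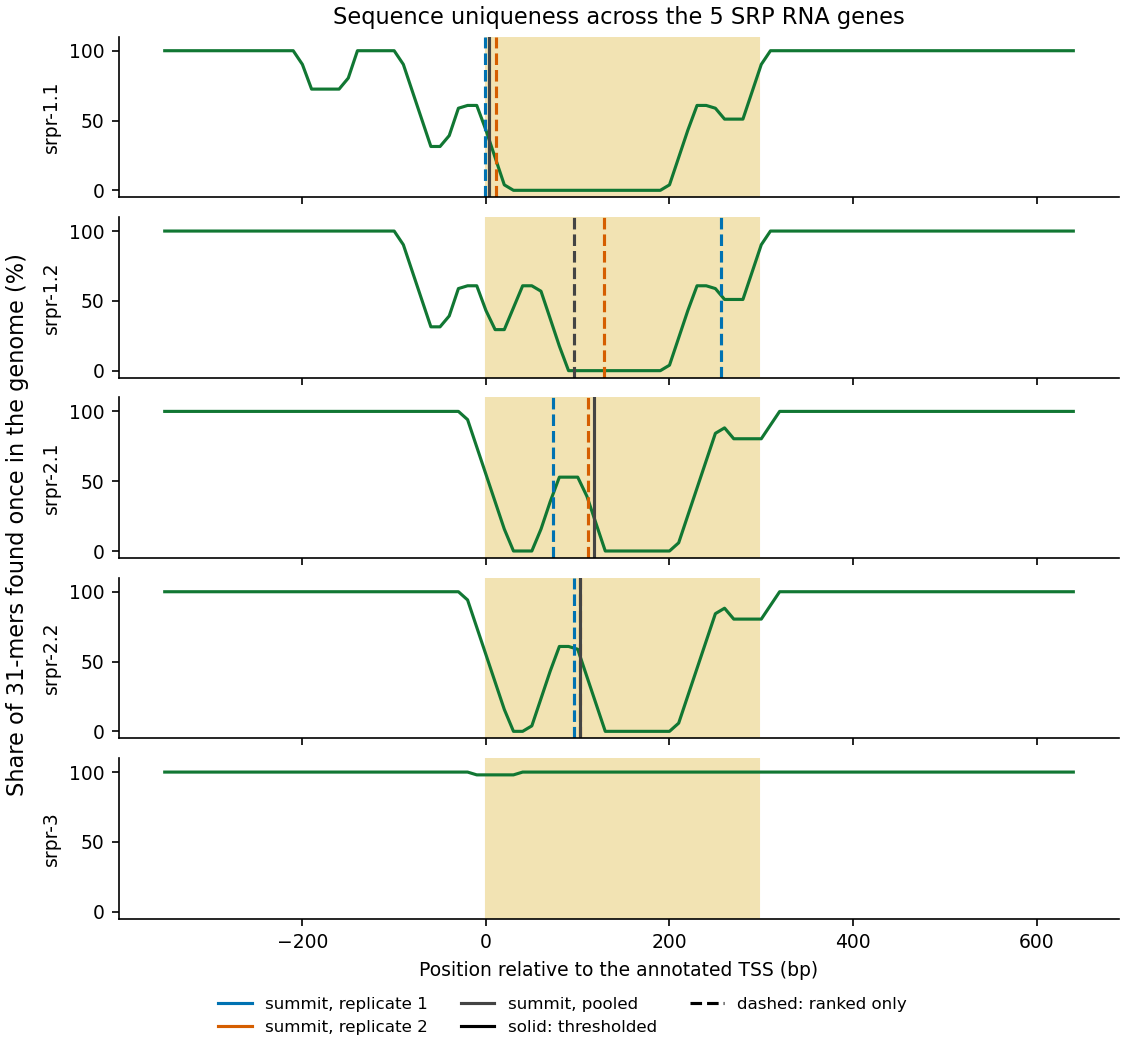
Share of 31-mers that occur once in the genome, in percent, in windows of 51 bp every 10 bp along the 5 SRP RNA genes (shaded) and their flanks, against position from the TSS in bp; vertical lines are summits in the gene's window with a signal value of at least 25 in replicate 1, replicate 2 and the pooled list (the last 2 coincide at srpr-2.2). These summits of srpr-1.1, srpr-1.2, srpr-2.1 and srpr-2.2 lie where the share is below 100%, while srpr-3 is near 100% throughout and has no summit.

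yrn-1 (chrIV:7499508-7499612, + strand, 105 bp) had no pooled summit in its window. In replicate 1 a ranked peak of signal value 14.3 lay 97 bp upstream of the TSS, at rank 25940 of 51611, and in replicate 2 there was none. The pooled list had a peak of signal value 20.1 at 123 bp, 19 bp past the gene end, and one of 39.8 at −708 bp, in an exon of F55G1.15. yrn-1 lies antisense in an intron of F55G1.15, and the ncRNA gene F55G1.20 covers it on the opposite strand. All of its 31-mers were unique. It shared TATATA and TGTCNG with rpr-1 and mrpr-1, which were thresholded in both samples.

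In the pooled list the order of the highest signal values was rpr-1 (143), srpr-2.1 (86.4), mrpr-1 (85.3), srpr-2.2 (81.7), srpr-1.1 (69.1) and srpr-1.2 (54.5). There is 1 value per gene and sample, so no spread within a list is known. rpr-1 came first and mrpr-1 second in replicate 1, with srpr-1.1 next at 38.1. In replicate 2 srpr-2.1 came directly after rpr-1, at 56.9 against 57.3, and srpr-2.2 followed at 53.3. The order of mrpr-1 against the srpr-2 pair was thus opposite in the samples, and that of rpr-1 against srpr-1.1 and srpr-1.2 was the same.

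Other small RNA classes were read by the same window. In the pooled thresholded list, 131 of 612 nuclear tRNA genes (21.4%), 42 of 346 snoRNA genes (12.1%), 4 of 129 snRNA genes (3.1%) and 0 of 16 5S rRNA genes had a summit. Genes of up to 300 bp without piRNA genes had one in 3.1%. The median highest pooled signal value was 83.5 over the 6 members with a ranked peak, with a range of 54.5 to 143. It was 45.2 over 504 tRNA genes, 30.8 over 272 snoRNA genes, 25.3 over 97 snRNA genes and 20.4 over 5 5S rRNA genes. Among thresholded genes alone the medians were closer, at 85.3 for the 5 members, 77.2 for tRNA, 97.7 for snoRNA and 88.2 for snRNA genes. The rpr-1 value of 143 was below that of the highest tRNA gene, M02F4.t1, at 154 (87.4 in replicate 1 and 63.8 in replicate 2), and of the highest snoRNA gene, C51F7.3, at 221 (107 and 108). The highest snRNA gene, 1 of several annotated under the name R07E5.16, had 103 (52.8 in replicate 1 and no ranked summit in replicate 2). The highest 5S rRNA gene, rrn-4.2, had 78.2 (no ranked summit in replicate 1 and 49.5 in replicate 2). The comparison is a description, since the 8 genes are few and 3 of the 5 thresholded ones are copies of 1 sequence.

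**Figure D4:**
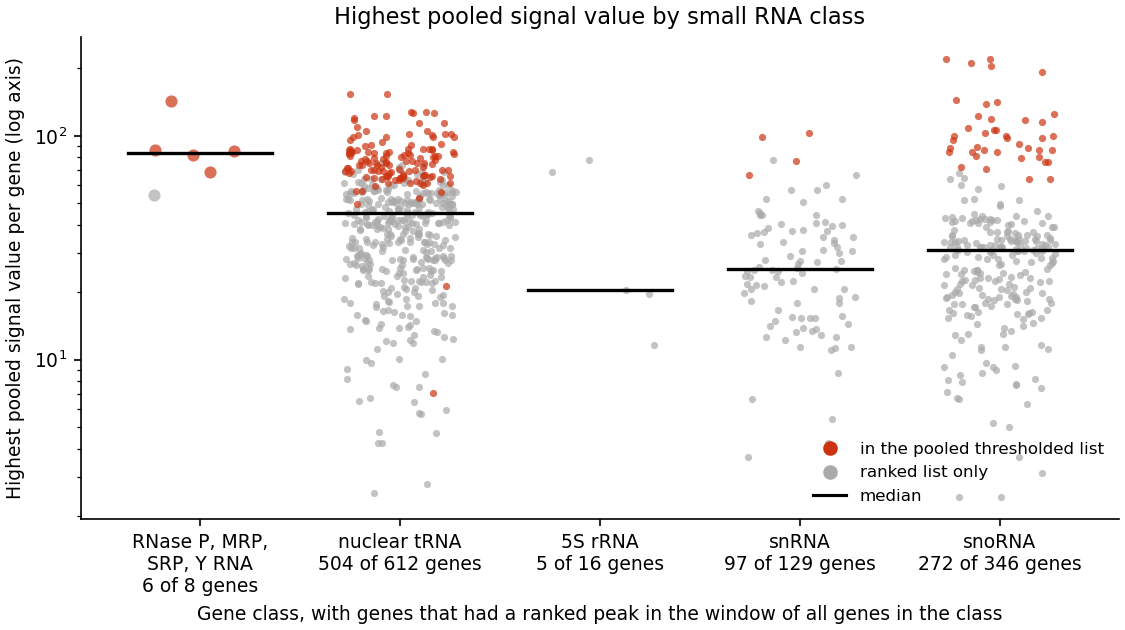
Highest pooled signal value per gene (log axis, authors' units) for genes with a ranked peak in their window, by small RNA class, with the median as a bar and genes in the pooled thresholded list in red. The members lie between 54.5 and 143, within the range of the tRNA genes (up to 154) and the snoRNA genes (up to 221).

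Summit position was compared with those classes as well. Of the 5 members with a thresholded summit, 4 had it inside the gene, with a median of 13 bp from the TSS and a range of −23 to 118 bp. For tRNA genes, whose median length is 72 bp, the median was 16 bp, and 65.6% of 131 had the summit inside the gene. For the 42 snoRNA genes the median was −36.5 bp and the share inside the gene 14.3%, and for the 4 snRNA genes the median was 40.5 bp and the share 75%. The nearest tRNA gene start to a member was 6944 bp away (srpr-1.2), so no member peak lay at a tRNA gene.

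tRNA genes are known for internal promoter words, and these were looked for in the members on the sense strand. GGTTC, the start of the B box, lay at base 184 of srpr-1.1, srpr-1.2, srpr-2.1 and srpr-2.2 and at base 62 of yrn-1, counted from the TSS as base 0. It was in 89.2% of tRNA genes, 9.3% of snRNA genes, 9.25% of snoRNA genes and 34.4% of all genes. The search covered the whole gene, and all genes include long ones, so the last share is not one for genes of the members' length. The median length was 109 bp for snRNA and 130 bp for snoRNA genes, which are shorter than the SRP copies. srpr-3 did not have GGTTC. The substitutions from srpr-2.1 to srpr-3 in that stretch were T187C, within the word, and T184C before it, counted from 1. The longer forms GGTTCGANNCC (B box) and TGGCNNAGTGG (A box) were in 0 of the 8 genes, against 64.4% and 9.31% of tRNA genes. No match says only that these letters were not in the gene.

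Factors of the bZIP class bind short palindromes, and 5 words known for such factors in other species were searched on both strands within 140 bp of the pooled summits. TGACGTCA (CRE), TTACGTAA and TTGCGCAA were at 0 of the 6 members with a ranked peak. The AP-1 word TGACTCA was at 4 of 6, srpr-1.1, srpr-1.2, srpr-2.1 and srpr-2.2, where it reads TGAGTCA on the sense strand at positions 25 to 31 of the gene. Over all summits the word was at 2.92% of 343 nuclear thresholded peaks (10 peaks) and at 2.69% of 111524 ranked ones, a difference that was not tested. Those 10 peaks include the ones at srpr-1.1, srpr-2.1 and srpr-2.2, so the thresholded share is not separate from the members. The shorter TGACG, which is part of TGACGTCA, was at 6 of 6 members, against 26.5% of thresholded and 27.9% of ranked peaks. From −140 to the gene end, srpr-3 and yrn-1 had neither TGACTCA nor TGACG. The first 45 bases of srpr-2.1 (chrIII:5211220-5211264, + strand) and srpr-3 (chrV:9293588-9293632, − strand) are shown with positions 25 to 31 in capitals, where the substitutions from srpr-2.1 to srpr-3 are G26A and T29C. The start of mrpr-1 (chrII:7200213-7200257, + strand, from base −20) is shown with TGACG in capitals.
srpr-2.1: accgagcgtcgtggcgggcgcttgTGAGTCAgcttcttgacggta
srpr-3: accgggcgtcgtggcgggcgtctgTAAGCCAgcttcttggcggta
mrpr-1: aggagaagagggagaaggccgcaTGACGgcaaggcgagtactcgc

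Most other genes with these words had no thresholded peak, as most nuclear genes had none. Of 1185 other nuclear genes with TGACTCA within 140 bp of the TSS, 10 (0.844%) had a thresholded summit. Of 11647 others with TGACG there, 143 (1.23%) had one, near the share of 1.13% over all genes. Of the 12 other genes with GTGTCNGCCGC, 0 were thresholded, too few genes to set against the share of 1.13%. Of the 37 other genes with both TGTCNG and TATATA, 2 were. Both were snRNA genes, a copy named R07E5.16 (pooled signal value 103) and F54D8.7 (67). The 37 genes include 12 snRNA genes, so 2 of 12 snRNA genes with both words were thresholded. Of all snRNA genes 3.1% (4 of 129) were thresholded, and those 4 include the same 2 genes. Whether these words go with peaks was not tested. The 4 close SRP copies have nearly the same sequence and are not separate observations of a word.

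Genes chosen for a link to these RNAs or to RNA polymerase III were read in the same peak lists, as gene lists drawn up by symbol and RefSeq product name. In the first of them 1 symbol had no match and in the second 4, and mig-2, a Rac GTPase gene, entered the second by its product text alone. None of the genes in the 4 lists had a summit in the pooled, conservative or single-sample thresholded lists, and over all 19973 protein-coding genes the pooled share was 1.06% (212 genes). Of 7 genes for RNase P and RNase MRP proteins, 6 had a ranked peak, with a median highest pooled signal value of 21.1. The highest were Y37E11AM.4 at 34.8 and popl-1, a subunit of both particles, at 30.3. popl-7 and Y62E10A.24, both at 21.1, were counted with 1 shared peak. Of 9 genes listed for SRP proteins and the SRP receptor, mig-2 among them, 8 had a ranked peak, with a median of 29. F21D5.7, for the 54 kDa subunit that binds signal peptides, had 46.4, and F25G6.8, for the 14 kDa subunit, had 31. F25G6.9 was counted with the same peak of 31, so these counts and medians are over genes and not over separate peaks. The gene of the Ro protein, rop-1, had 38.4, and larp-1, for a La-related protein, had 57.9. Whether the larp-1 protein binds any of these RNAs is not shown here, and no gene for the La protein itself was listed. Of 29 genes for RNA polymerase III and its factors, 27 had a ranked peak with a median of 28.5, and the highest were rpac-19 at 54.5 and rpc-1, the largest subunit, at 47.5. Over all protein-coding genes 90.1% had a ranked peak, and the median was 29.

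Genes with signal values most like those of rpr-1 were ranked by distance on the log2 scale over the 2 samples, among 15904 genes with a ranked peak in both. The first was ints-8, at a distance of 0.00, since it shares the rpr-1 peak. Next came C27H6.5, a snoRNA gene, and unc-41, which share 1 peak, at a distance of 0.13 and with signal values of 86 in replicate 1, 61.1 in replicate 2 and 142 in the pooled list.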

How the data were processed

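ChIP-seq of tagged ZIP-11 was available for 2 samples of 1 group. The authors deposited peak lists on assembly ce11, whose signal column is ChIP over control per the file format. The ranked lists deposited by the authors also give −log10 of the global IDR. Which aligner and peak caller were used is not given in the sources used here, and depth is unknown. Each ranked list of both samples was matched to the thresholded list it contains. Summits were counted from 500 bp upstream of the TSS to the gene end with Python 3.11.15 and NumPy 2.4.6, in the annotation of Ensembl release 115 (names missing there came from RefSeq), and the highest signal value in a window was taken for its gene. The window count was tested on simulated data. Copies were aligned with Biopython 1.88 (match 1, mismatch −1, gap opening −3, extension −1) and searched in the genome with BLAST 2.17.0. The members, gene lists and words were chosen with earlier results of these data known. Named are all members, the highest genes of each list and class, and the 3 genes most like rpr-1; words known for bZIP factors were added after the data were seen. Alternatives were other windows, lists, IDR limits and single samples.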

Additional observations from a re-analysis of the deposited data

How the results depend on the processing

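The count of 5 genes in the pooled thresholded list kept within 1.5 times under windows of 250 or 1000 bp upstream or 250 bp past the gene end, under any overlap, in the conservative list, in the upper 50% by signal value (4 genes) and at a global IDR under 0.05 (6 genes). At an IDR under 0.001 it was 1, rpr-1. With either sample left out it was 2 (range 2 to 2), rpr-1 and mrpr-1; the single lists hold fewer peaks, and the cause was not tested. The 6 genes of the pooled ranked list became 7, with yrn-1, at 1000 bp upstream or 250 bp past the end, and leaving out a sample gave 6 to 7. Of 24 signal values under other settings, 23 equalled the reported one, and that of srpr-1.1 moved from 69.1 to 74.2 where 250 bp past the gene end were counted. No paired analysis was possible because the series has 1 group. With no read counts, the depth behind any value is unknown, and repeated sequence limits the 4 close SRP copies.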

Other observations

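In a search of the genome with each member, the 5 annotated SRP RNA genes were the only matches over most of the length of an SRP RNA gene. The first 47 to 55 bases of srpr-3 also matched 6 short stretches of the X chromosome, at 89.1% to 93.6% identity. rpr-1, mrpr-1 and yrn-1 matched their own locus alone.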
